A study of Danio rerio with 12 samples.

Results

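The genes described here are the red cell globin and heme genes of zebrafish gill: hbaa1 and hbba1 (the adult alpha and beta chains of hemoglobin), hbbe2 (an embryonic beta chain), alas2 (the red cell form of 5-aminolevulinate synthase, the enzyme that starts heme synthesis) and slc4a1a (band 3, the chloride and bicarbonate exchanger of the red cell membrane). They were chosen by name, and their probes were found through the RefSeq accession on the array. No probe carried an accession that matched hbaa1, so that gene was not analysed here. The other 4 of the 5 genes were measured by 10 probes (2 for hbba1, 2 for hbbe2, 4 for alas2 and 2 for slc4a1a) and stand among 12559 genes tested.

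Gill RNA was taken from 12 pools of adult zebrafish, each pool made from the gills of 10 fish, and hybridised to single-colour Agilent arrays. There were 3 pools of untreated control fish and 3 pools each from fish kept 96 h with CuO nanoparticles at 0.2 mg/L, ZnO nanoparticles at 4.8 mg/L or NiO nanoparticles at 17.5 mg/L, without feeding. The doses were set by the submitters from each particle's own lethality, so the exposures differ in mass of metal oxide, and no strain or sex is given in the labels. Each pool is 1 array, numbered within its group.

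Fish red cells keep their nucleus and carry messenger RNA, and the gill is filled with blood, so globin transcripts are present in gill RNA. In a red cell, alas2 joins glycine to succinyl-CoA, a chain of enzymes builds the porphyrin ring, ferrochelatase (fech) places iron in it, and the finished heme is held by alpha and beta globin. Transcription factors such as gata1a and its partners switch these genes on together as red cells form, and membrane proteins such as band 3, spectrin and glycophorin are made in the same cells. In bulk gill RNA, fewer red cells and less RNA per red cell cannot be told apart.

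No array had a saturated spot, and 75.5 to 88.4% of spots lay well above background. Within a group, arrays correlated across genes at r = 0.820 to 0.967. Several arrays stood apart in RNA of other organs. The median of 13 oocyte markers was 3.00 to 3.62 in the controls and 1.25 on NiO array 1, and -6.17 to -4.38 on the other 8 exposed arrays. The median of 12 eye markers was -6.63 to -5.85 on control array 3, CuO array 3, ZnO array 1 and NiO array 2, and 0.08 to 1.71 elsewhere. Markers of the gill itself (13 tested) were well above background for 11 to 13 genes on every array, with a median between -4.53 and 1.60. All levels here are log2 of the processed signal minus log2 of that array's 75th percentile. Levels of different probes are not comparable, and differences are log2 differences of group means from limma with adjusted p-values over all genes tested. The 3 arrays per group limit the precision.

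None of the 4 genes passed an adjusted p of 0.05 against control under CuO, ZnO or NiO (0 of 4 each). Over all genes, 25.1% passed under CuO, 25.8% under ZnO and 22.3% under NiO. The F test over the 4 groups called 0 of the 4 genes and 20.9% of all genes. Between exposures 0 of 12559 genes passed in any of the 3 pairs (0%), although 1248 genes had an unadjusted p under 0.05 for CuO against ZnO, 781 for CuO against NiO and 620 for ZnO against NiO. What the members show is therefore a set of levels with wide spread, in which 10 of the 12 differences from control were positive and the intervals of 9 included 0. The median gene lay 0.42 above control under CuO, 0.32 under ZnO and 0.27 under NiO on this scale, and the members' differences are to be read against that shift.

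**Figure D1:**
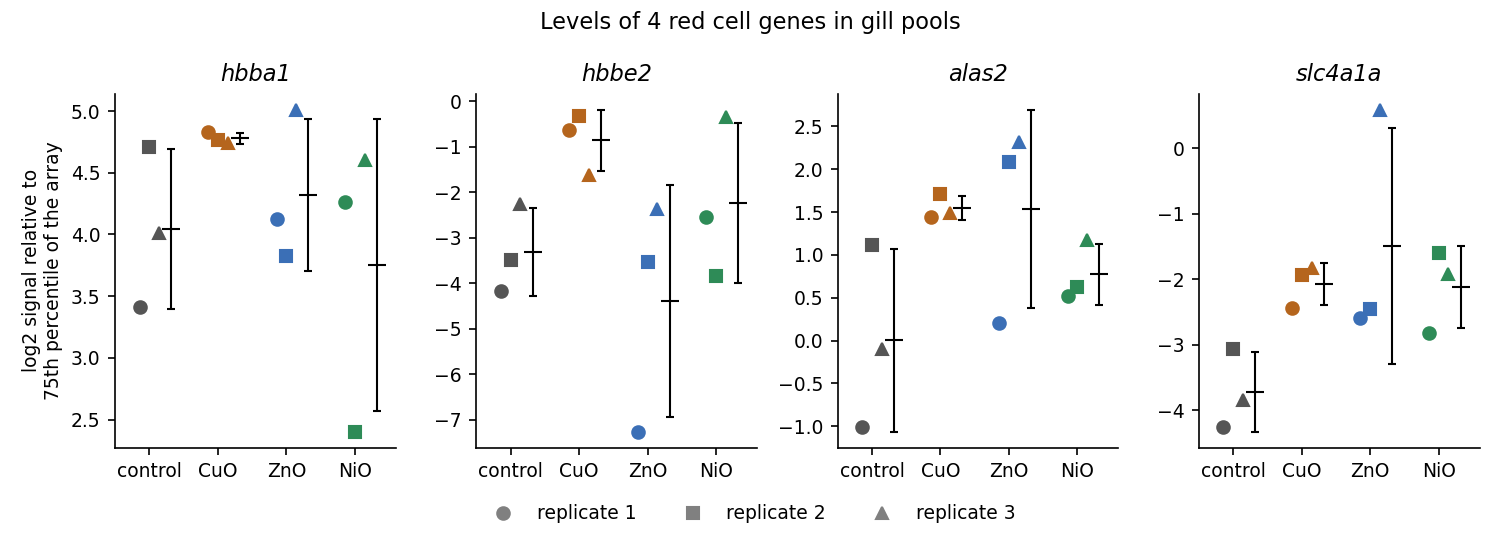
Log2 level of hbba1, hbbe2, alas2 and slc4a1a (processed signal against the array's 75th percentile; y axis, a separate scale for each gene) in the 3 pools of each group; symbols mark the replicate number, and the bar beside them is the mean ± SD (n = 3). The 3 CuO arrays lie close together for hbba1 and alas2, ZnO array 1 is far below the rest for hbbe2, and all 9 exposed arrays lie above the 3 controls for slc4a1a.

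The adult beta globin hbba1 was bright on every array. Its level was 3.41, 4.71 and 4.01 on the control arrays and 4.83, 4.77 and 4.74 on the CuO arrays. It was 4.12, 3.83 and 5.01 on the ZnO arrays and 4.26, 2.40 and 4.60 on the NiO arrays. The CuO arrays all lay just above the highest control, a pattern that 27.4% of all genes share, while the ZnO and NiO arrays overlapped the controls. NiO array 2 was the lowest of the 12, more than 1 log2 unit below the lowest control. From high to low the group means were 4.78 ± 0.045 under CuO, 4.32 ± 0.62 under ZnO, 4.04 ± 0.65 in control and 3.75 ± 1.18 under NiO (SD, n = 3), and no neighbouring groups in this order differed beyond their spread. The difference from control was 0.74 (SE 0.57, adjusted p = 0.351) under CuO, 0.28 (adjusted p = 0.743) under ZnO and -0.29 (adjusted p = 0.747) under NiO. Without NiO array 2 the NiO difference was 0.39, so its sign rests on that array. The second hbba1 probe also had its lowest value on NiO array 2 (2.05) and gave differences of 0.45, 0.16 and -0.23, with no usable spot on CuO array 3 or ZnO array 3. On that probe control array 2 (3.65) was the highest, above CuO arrays 1 (3.64) and 2 (3.58), so CuO and control overlapped.

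Some of the genes close to hbba1 on the chromosome followed its course over the 12 arrays. Among 10857 genes well above background on every array, the named genes most like hbba1 were ba1l, another adult beta globin (Pearson r = 0.954), chid1, a chitinase-like gene (r = 0.916), and hbae4, an embryonic alpha globin (r = 0.902). The unnamed locus si:ch211-5k11.8 was closer still (r = 0.972). In the order of the RefSeq annotation of GRCz12tu, hbba1 lies in the run hbaa2, hbba2, ba1l, hbaa1, hbba1, si:ch211-5k11.8, and hbbe2 in a second run of hbae4, hbbe3, hbbe2, hbae5. All of these correlations are descriptions over 12 arrays that share their scaling and RNA pools. Near-identical beta globin copies may also share probe signal, which was not tested.

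The hbba1 pattern did not extend to every adult globin. The alpha globin hbaa2 ranged from -5.17 on control array 1 to 0.80 on ZnO array 3, and its pattern within groups was wide: -5.17, -0.44 and -2.46 in control, -4.76, -2.08 and -3.97 under CuO, -2.35, -5.11 and 0.80 under ZnO, and -3.06, -3.02 and -0.85 under NiO. Its neighbour hbba2, a beta globin, was likewise high on ZnO array 3 (2.17), NiO array 3 (2.06) and control array 2 (0.85) and low on control array 1 (-2.69) and CuO array 1 (-2.19). For both genes each exposed group overlapped the controls, with differences from -0.91 to 0.47 for hbaa2 and from -0.17 to 1.21 for hbba2.

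The embryonic beta globin hbbe2 had its highest group mean under CuO and its lowest single value on a ZnO array. Its level was -4.18, -3.50 and -2.27 on the control arrays and -0.63, -0.34 and -1.62 on the CuO arrays. It was -7.26, -3.53 and -2.38 on the ZnO arrays and -2.54, -3.83 and -0.36 on the NiO arrays. All 3 CuO arrays lay above all 3 controls, as for 27.4% of all genes, and NiO array 3 was as high as the CuO arrays. ZnO array 1, where the probe was not well above background, lay more than 3 log2 units below any other. The group means ran from -0.86 ± 0.68 under CuO through -2.25 ± 1.76 under NiO and -3.31 ± 0.97 in control to -4.39 ± 2.55 under ZnO (SD, n = 3). The CuO arrays were separated from those of control and ZnO, and the NiO arrays overlapped all 3 other groups. The difference from control was 2.45 under CuO (SE 1.21, 95% interval -0.24 to 5.15, adjusted p = 0.156), 1.07 under NiO (adjusted p = 0.556) and -1.07 under ZnO (adjusted p = 0.540). CuO and ZnO differed by 3.53 (95% interval 0.83 to 6.22, adjusted p = 0.414), with all 3 CuO arrays above all 3 ZnO arrays, a pattern of 6.29% of all genes. The ZnO difference turned to 0.36 without ZnO array 1, and the NiO difference was 0.13 without NiO array 3 and 1.86 without NiO array 2. The second hbbe2 probe, well above background on all 12 arrays, put its lowest value on ZnO array 1 too (-5.86) and its highest on CuO array 2 (-0.86), and gave 1.97 for CuO (adjusted p = 0.150 over all probes).

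The genes most like hbbe2 were not globins. They were pls1, plastin 1, an actin bundling protein of epithelial brush borders (r = 0.942), dao.2, a D-amino acid oxidase gene (r = 0.941), and tph1b, a tryptophan hydroxylase that starts serotonin synthesis (r = 0.935). On ZnO array 1, pls1 stood at -2.40, dao.2 at -2.38 and tph1b at -4.36, the lowest of the 12 arrays for each. Intestine markers, a list put together after these values were seen, had 7 of 8 genes tested, all 7 well above background on every array, and their median was -3.79 on ZnO array 1 against 0.54 to 3.33 on the other 11. By group the median was 0.54 to 2.87 in control, and in the exposed pools it was 3.05 to 3.33 (CuO), -3.79 to 2.27 (ZnO) and 0.65 to 2.68 (NiO). The 9 liver markers tested also had their lowest median on ZnO array 1 (-2.38, against 3.15 to 5.01 elsewhere). None of these lists had a member called in any exposure, and their part in the hbbe2 levels was not tested. Of the other embryonic globins, hbbe3, the neighbour of hbbe2, stayed between -5.33 and -3.80 on all arrays, and hbae3 was also lowest on ZnO array 1 (-8.01), where its probe too was not well above background, and overlapped the controls under CuO.

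Of 15 globin genes listed, 8 were tested and 0 were called in each of the 3 comparisons with control, where 25.1%, 25.8% and 22.3% of all genes were called. Their median difference was 0.36 under CuO, 0.38 under ZnO and 0.24 under NiO, beside 0.42, 0.32 and 0.27 for all genes. Besides those above, hbae1.1 differed by 0.06, 0.90 and 0.64, the ZnO value coming with 1 array at -0.37 and the other 11 arrays at -5.64 to -3.02. The embryonic alpha chain hbae3 differed by -0.64, -1.74 and -0.72, hbae4 by 1.03, 0.96 and -0.53, and hbbe3 by 0.66, 0.15 and 0.10 (CuO, ZnO and NiO in that order).

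The heme gene alas2, by its brightest probe, was higher on most exposed arrays than on any control. The brightest of its probes, which stands for the gene in the fit, gave -1.01, 1.11 and -0.10 on the control arrays and 1.45, 1.71 and 1.49 on the CuO arrays. It gave 0.20, 2.09 and 2.31 on the ZnO arrays and 0.51, 0.63 and 1.18 on the NiO arrays. The CuO arrays lay within 0.3 of each other and above every control on this probe, the latter as for 27.4% of all genes. ZnO array 1 and NiO arrays 1 and 2 fell below control array 2. The means were 1.55 ± 0.14 under CuO, 1.54 ± 1.16 under ZnO, 0.77 ± 0.35 under NiO and 0.00 ± 1.07 in control (SD, n = 3), and CuO and ZnO differed by 0.01 (95% interval -1.36 to 1.38). The difference from control was 1.55 under CuO (SE 0.62, 95% interval 0.18 to 2.92, adjusted p = 0.0900), 1.53 under ZnO (95% interval 0.16 to 2.91, adjusted p = 0.0922) and 0.77 under NiO (adjusted p = 0.396). These values turn on the controls: without control array 2, the highest, the CuO difference was 2.10 and the ZnO difference 2.09, both past the threshold. Without control array 1, the lowest, the differences were 1.04 under CuO (adjusted p = 0.268), 1.03 under ZnO (adjusted p = 0.282) and 0.27 under NiO.

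**Figure D2:**
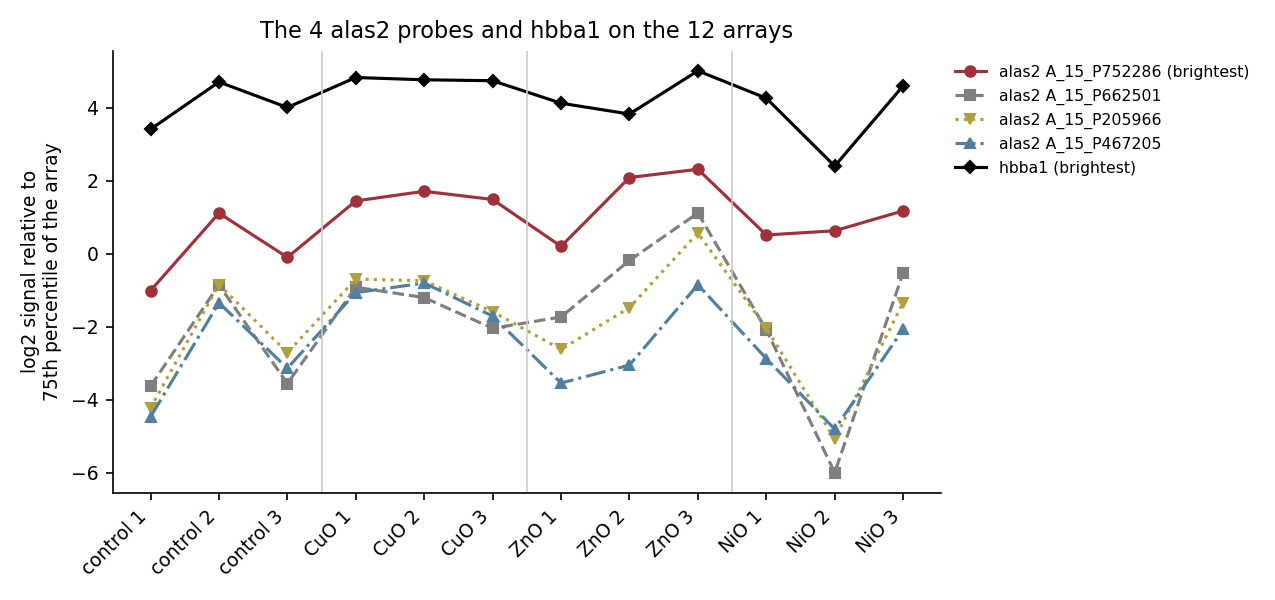
Log2 signal of the 4 alas2 probes and of the brightest hbba1 probe (y axis) on the 12 arrays (x axis), scaled by each array's 75th percentile. On NiO array 2 the 3 dimmer alas2 probes and hbba1 fall to their lowest values, while the brightest alas2 probe does not.

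The 4 alas2 probes did not agree on NiO array 2. Each was well above background on all 12 arrays and carried the same RefSeq transcript. The 3 dimmer probes were lowest of the 12 on that array (-5.99, -5.08 and -4.80), whereas the brightest gave 0.63 there and was lowest on control array 1. Over the 12 arrays the dimmer probes spanned 7.11, 5.65 and 4.00 log2 units and the brightest 3.33. Under CuO all 4 differences from control were positive (1.29 to 1.79), and under ZnO too (0.50 to 2.41), but under NiO the brightest gave 0.77 and the others -0.19, -0.22 and -0.27. On the 3 dimmer probes CuO array 3 (-2.04, -1.59 and -1.71) lay below control array 2 (-0.85, -0.84 and -1.34). Only on the brightest probe were the CuO arrays all above every control. None of the 4 probes was called in a fit over all probes. The sign of the alas2 difference under NiO therefore depends on the probe.

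Over all 12 arrays, Pearson's r with hbba1 was higher for the dimmer alas2 probes than for the brightest. The 3 dimmer probes had r = 0.924, 0.925 and 0.830 (permutation test, adjusted p = 0.00016, 8e-05 and 0.00405 over 8 relations; Spearman's rho 0.895, 0.944 and 0.601). The brightest had r = 0.538 with hbba1 (adjusted p = 0.115, permutation test; rho 0.629). Without the 2 arrays farthest from the probe's median the dimmer probes had 0.790, 0.927 and 0.536 and the brightest 0.444. With slc4a1a the brightest probe had r = 0.763 (adjusted p = 0.00884, permutation test), and the others had 0.449 to 0.506 (adjusted p = 0.126 to 0.143). Without the 2 arrays farthest from each probe's own median, the brightest had 0.551 with slc4a1a and the others 0.779, 0.562 and 0.740. The arrays left out differed between probes, so the values without 2 arrays do not rank the probes. The differences between probes in these correlations were not tested. These relations were looked for after the probe values were seen.

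The other genes of heme synthesis did not move as a block. Of 14 listed, 13 were tested, including alas2. Under CuO 1 rose and 2 fell, under ZnO 0 rose and 2 fell, and under NiO 0 rose and 2 fell, so 3, 2 and 2 of 13 were called beside the 25.1%, 25.8% and 22.3% of all genes given above. The list's median difference was -0.54, -0.23 and -0.38, below that of all genes in each exposure. These counts rest on the brightest probe of each gene. In a fit over all probes 1 of the 3 probes of uros was called lower in each exposure. Its brightest probe gave -0.37, -0.39 and -0.32 and was not called. The gene uros was singled out after its values were seen.

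**Figure D3:**
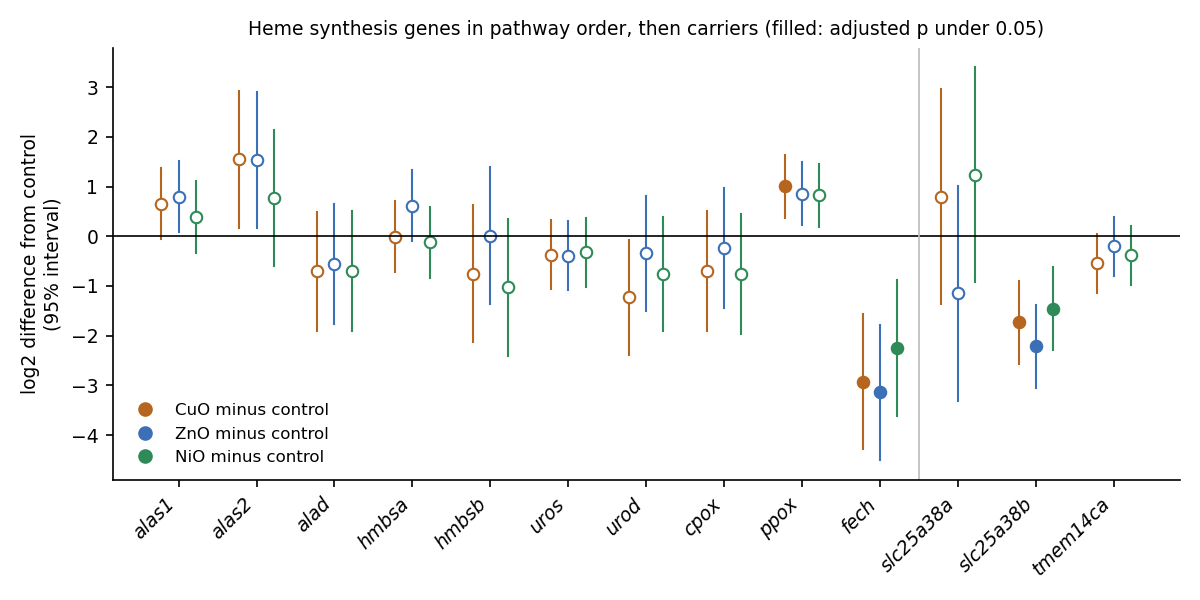
Log2 difference from control with its 95% interval (y axis) for 10 enzymes of heme synthesis in pathway order, then 3 mitochondrial carrier or membrane genes (x axis), under CuO, ZnO and NiO; filled circles have an adjusted p under 0.05. The points of alas1 and alas2 lie above 0, while those of fech, the last enzyme, and slc25a38b lie below 0 in all 3 exposures.

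The last enzyme of the pathway, fech, fell in all 3 exposures. Its level was -1.44, -1.88 and -1.38 on the control arrays and -5.37, -3.04 and -5.06 on the CuO arrays. It was -4.33, -5.59 and -4.20 on the ZnO arrays and -3.43, -3.52 and -4.48 on the NiO arrays. All 9 exposed arrays lay more than 1 log2 unit below the lowest control, and 14.0% of all genes had every exposed array below every control. The difference was -2.92 under CuO (SE 0.61, adjusted p = 0.00798), -3.14 under ZnO (adjusted p = 0.00659) and -2.24 under NiO (adjusted p = 0.0276). Both fech probes fell under CuO (-4.22 and -2.92) and ZnO (-3.92 and -3.14), and 1 of the 2 was called under NiO. Without the 4 arrays low in eye transcripts the difference was -2.54 under CuO (adjusted p = 0.0712), -3.23 under ZnO (adjusted p = 0.0481) and -2.29 under NiO (adjusted p = 0.121), and the NiO call was also lost without control array 1 or 3 (adjusted p = 0.0745 and 0.0897). The oocyte markers fell in the same comparisons (12 of 13 called lower under CuO and ZnO and 11 under NiO). On NiO array 1, where their median was 1.25, fech was -3.43, the second highest of the 9 exposed arrays and still below every control. A further fit took the average level of the 13 oocyte markers on each array as a covariate. Its fech differences were -2.28, -2.42 and -1.76 under CuO, ZnO and NiO. No gene was called against control by limma in that fit (0 of 12559), fech included.

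The mitochondrial glycine carrier paralog slc25a38b fell as well. It was -2.82, -2.56 and -2.81 in control and -4.44, -4.98 and -3.94 under CuO. It was -4.25, -5.46 and -5.13 under ZnO and -4.06, -3.95 and -4.55 under NiO. Every exposed array again lay below every control, as for 14.0% of all genes. Its differences were -1.73 (adjusted p = 0.00909), -2.22 (adjusted p = 0.00406) and -1.46 (adjusted p = 0.0221). In a fit over all probes both of its 2 probes were called under CuO, and 1 of the 2 under ZnO and under NiO. Its paralog slc25a38a was not called (0.80, -1.15 and 1.23). The enzyme before fech, ppox, protoporphyrinogen oxidase, rose by 1.01 under CuO (adjusted p = 0.0283) and gave 0.86 under ZnO (adjusted p = 0.0501) and 0.82 under NiO (adjusted p = 0.0647). The housekeeping form alas1, which starts heme synthesis outside red cells, gave 0.66, 0.80 and 0.39 (adjusted p = 0.155, 0.0951 and 0.416).

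The band 3 gene slc4a1a, by its brighter probe, was higher on every exposed array than on any control. Its level was -4.26, -3.06 and -3.84 on the control arrays and -2.43, -1.94 and -1.83 on the CuO arrays. It was -2.59, -2.46 and 0.59 on the ZnO arrays and -2.81, -1.60 and -1.92 on the NiO arrays. Exposed and control arrays did not overlap, a pattern found for 13.1% of all genes (25.6% for ZnO alone and 23.0% for NiO alone), and ZnO array 3 stood more than 2 log2 units above every other array. The means were -1.49 ± 1.80 under ZnO, -2.07 ± 0.32 under CuO, -2.11 ± 0.63 under NiO and -3.72 ± 0.61 in control (SD, n = 3), and the 3 exposures did not differ beyond their spread. The differences from control were 1.65 under CuO (SE 0.76, adjusted p = 0.131), 2.23 under ZnO (95% interval 0.55 to 3.92, adjusted p = 0.0535) and 1.61 under NiO (adjusted p = 0.153). Slide n held replicate n of each group, with each group at the same position on every slide, so position and group cannot be told apart. Within the 3 slides the ZnO difference was 1.67, 0.60 and 4.43, the CuO difference 1.83, 1.12 and 2.01, and the NiO difference 1.44, 1.46 and 1.91. With the slide as a block the ZnO difference passed the threshold (adjusted p = 0.0461), and without ZnO array 3 it was 1.19 (adjusted p = 0.0922).

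The mean of the 3 exposures, a contrast added after the data were seen, differed from control by 1.83 for slc4a1a (SE 0.62, adjusted p = 0.0421), by 1.28 for alas2 (adjusted p = 0.0717), by 0.82 for hbbe2 (adjusted p = 0.546) and by 0.24 for hbba1 (adjusted p = 0.710). That is 1 of 4 genes called where 35.2% of all genes were called. The call for slc4a1a was lost under 15 of 24 alternatives, over which its adjusted p ran from 0.0109 to 1.00. The second slc4a1a probe was well above background on 7 of 12 arrays and differed by 1.74, 1.34 and 1.29 under CuO, ZnO and NiO. On that probe ZnO array 2 was the lowest of the 12 (-8.81) and NiO array 3 (-7.81) lay among the controls (-8.21 to -7.72), so only the CuO arrays were all above every control.

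**Figure D4:**
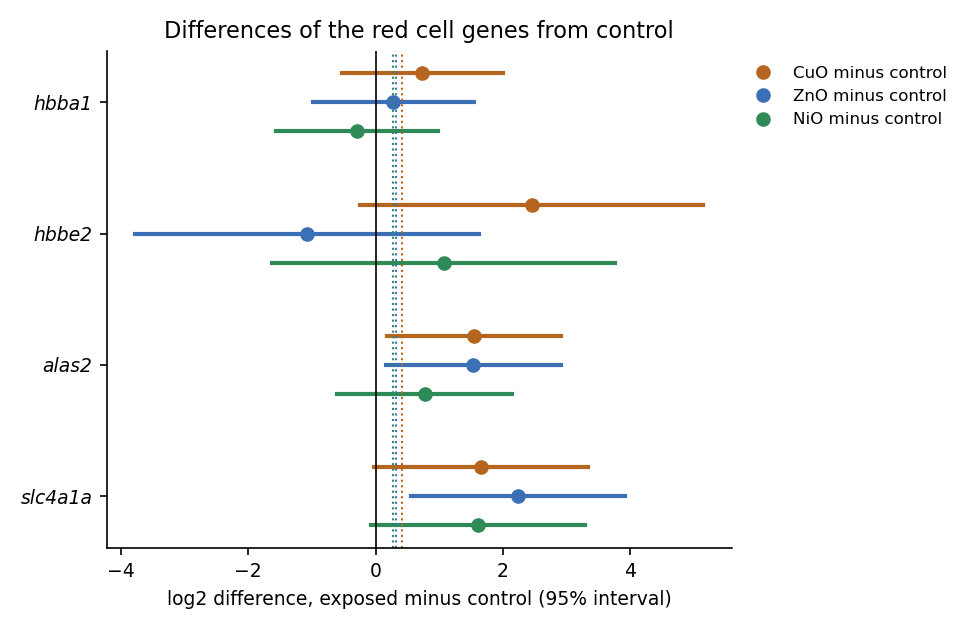
Log2 difference from control with its 95% interval (x axis) for the 4 genes (y axis) under CuO, ZnO and NiO; dotted lines mark the median difference of all genes in each exposure. The intervals of alas2 under CuO and ZnO and of slc4a1a under ZnO exclude 0, and no difference has an adjusted p under 0.05.

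Some markers of other cells also differed between control and exposed arrays. The median of 7 endothelium markers was -3.95 to -2.36 in control, and in the exposed pools it was -2.43 to -1.75 (CuO), -2.39 to -1.16 (ZnO) and -1.81 to -0.90 (NiO), with 2, 3 and 5 of 7 called higher. The median of 5 myeloid markers was -0.06 to 1.05 in control and 1.56 to 2.54 on the 9 exposed arrays, with 1, 2 and 1 called higher. Of 6 lymphocyte markers 2, 2 and 0 were called higher, and their median difference was 1.27, 0.82 and -0.33. Of 3 thrombocyte markers 1 was called higher in each exposure, with a median difference of 1.91, 1.52 and 0.95. Of 13 gill markers 2, 3 and 2 were called higher, with a median difference of 1.33, 1.75 and 1.19. These lists are to be read beside all genes, of which 25.1%, 25.8% and 22.3% were called in either direction. The median difference of all genes was 0.42, 0.32 and 0.27. With the average oocyte marker level as a covariate the mean difference of slc4a1a was 0.72 and was not called. The part of these cells in the slc4a1a levels was not tested.

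The genes most like slc4a1a were cfbl, a complement factor B-like gene (r = 0.914), olfml3b, an olfactomedin-like matrix gene (r = 0.913), and p4ha2, a collagen prolyl hydroxylase subunit (r = 0.899). Those most like alas2 were st3gal4, a sialyltransferase (r = 0.937), igfbp1b, a binding protein of insulin-like growth factors (r = 0.935), and f3a, tissue factor (r = 0.931). No globin was among the 3 nearest genes of either, each taken by its brightest probe. For alas2 this depends on the probe: the dimmer probes had r = 0.924, 0.925 and 0.830 with hbba1, and their nearest genes were not looked for.

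Of 17 red cell membrane genes listed, 7 were tested, and 2 rose under CuO, 2 under ZnO and 1 under NiO, with 0 lower. These counts lie near the share of all genes called in either direction under CuO and ZnO (25.1% and 25.8%) and below it under NiO (22.3%). Of all 12559 genes 1443, 1738 and 1285 were called higher. The median difference of the list was 1.65, 1.79 and 1.21, beside 0.42, 0.32 and 0.27 for all genes. The beta spectrin gene sptb, part of the skeleton under the membrane, was -4.18, -2.88 and -3.01 in control, -0.98, -1.43 and -1.83 under CuO, -2.57, -1.26 and -0.85 under ZnO and -1.86, -2.17 and -1.57 under NiO. It rose by 1.94 under CuO (adjusted p = 0.0180) and 1.80 under ZnO (adjusted p = 0.0251) and gave 1.49 under NiO (adjusted p = 0.0551). Every exposed array lay above every control, as for 13.1% of all genes. A second sptb probe gave 1.61, 0.59 and 1.06 under CuO, ZnO and NiO. In a fit over all probes 1 of the 2 sptb probes was called under ZnO. Glycophorin C, gypc, which ties that skeleton to the membrane, was -4.92, -3.61 and -4.08 in control and between -3.27 and -2.66 on all 9 exposed arrays. It rose by 1.31 (adjusted p = 0.0189), 1.32 (adjusted p = 0.0192) and 1.12 (adjusted p = 0.0395), although its second probe was not called and gave 0.70, 0.57 and 0.10. In a fit over all probes 1 of the 2 gypc probes was called under CuO and under ZnO, and neither under NiO. The gypc call under NiO was kept under 6 of 25 alternatives. The remaining members, among them rhag (the red cell ammonia channel protein) and epb41b (protein 4.1), were not called.

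**Figure D5:**
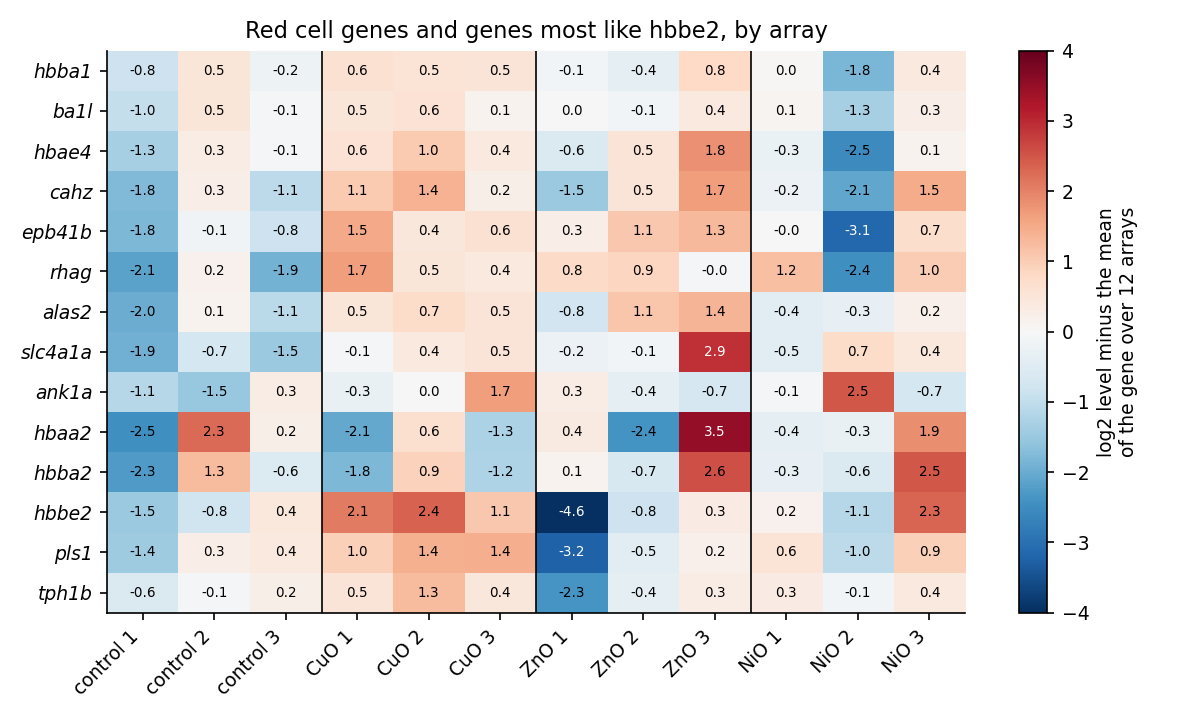
Log2 level of 14 genes minus the gene's mean over the 12 arrays (colour and number) by array. From hbba1 down to rhag the genes are lowest on NiO array 2. The genes alas2 (brightest probe), slc4a1a, ank1a, hbaa2 and hbba2 are not, and hbbe2, pls1 and tph1b are lowest on ZnO array 1.

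Red cell genes went different ways on NiO array 2. Besides hbba1 and the 3 dimmer alas2 probes, ba1l (2.87), hbae4 (-3.01), epb41b (-3.28), rhag (-4.44) and the red cell carbonic anhydrase cahz (-3.84) had their lowest value of the 12 arrays there. Some other red cell genes had their lowest value on another array. On NiO array 2 hbaa2 stood at -3.02, hbba2 at -0.98, hbbe3 at -3.94, sptb at -2.17 and gypc at -2.92. The share of all genes that were lowest on NiO array 2 was not counted. On the same array slc4a1a stood at -1.60, the second highest of the 12, and the ankyrin gene ank1a at 3.62, the highest. The genes cahz, epb41b, rhag and ank1a were singled out after their values were seen. On control array 1 most of these genes were low together: hbba1, hbae4, cahz, epb41b and rhag had their second lowest value, and alas2 and slc4a1a their lowest. Thrombocyte and gill markers were low on NiO array 2 as well. The median of the 3 thrombocyte markers tested was -4.81 on both control array 1 and NiO array 2, against -3.37 to -0.94 on the other 10 arrays. Their member itga2b, the thrombocyte integrin alpha chain, had its lowest value of the 12 on NiO array 2 (-4.81). The median of the gill markers was -4.43 on NiO array 2, and it was also low on control array 3 (-4.53) and CuO array 3 (-4.16). The part of these cells in the low values was not tested.

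Among the members themselves, 6 pairs were compared over the 12 arrays. Of these, alas2 and slc4a1a passed with Pearson's r (r = 0.763, adjusted p = 0.0270 by permutation test) but not with Spearman's rho (0.706, adjusted p = 0.0546), and r was 0.551 without the 2 arrays farthest from the median of alas2, control arrays 1 and 3. Within groups, from deviations from the group means, r was 0.619. The other 5 pairs had r = 0.238 to 0.538 and adjusted p = 0.204 to 0.441 (permutation test).

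Of 22 regulators of red cell formation listed, 16 were tested: 6 rose under CuO, 3 under ZnO and 2 under NiO, and 0 fell. Of all genes 25.1%, 25.8% and 22.3% were called in either direction. The CuO count lies above that share and the ZnO and NiO counts below it. All calls in the list were rises, and of all 12559 genes 1443, 1738 and 1285 were called higher. Their median difference was 1.29, 0.63 and 0.68, beside 0.42, 0.32 and 0.27 for all genes. Without the 4 arrays low in eye transcripts 2 were called under CuO, 2 under ZnO and 0 under NiO. That fit called 1943 of all 12559 genes under ZnO and only 5 under NiO, so its count for NiO cannot be read as a result about the regulators. The master regulator gata1a was -4.98, -3.32 and -4.01 in control, -0.98, -1.80 and -2.19 under CuO, -3.90, -2.33 and -1.05 under ZnO and -3.23, -4.31 and -2.03 under NiO. The CuO arrays lay above all controls, as for 27.4% of all genes, and the other exposures overlapped the controls. It rose by 2.45 under CuO (SE 0.78, adjusted p = 0.0443) and gave 1.67 under ZnO (adjusted p = 0.141) and 0.91 under NiO (adjusted p = 0.429). Its call under CuO was lost under 14 of 25 alternatives.

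The gata1a partner lmo2 rose by 1.61 under CuO (adjusted p = 0.0178) and by 1.304 under ZnO (adjusted p = 0.0410), and gave 0.52 under NiO (adjusted p = 0.384). Its call under ZnO was kept under 6 of 25 alternatives. The repressor gfi1b rose by 1.65 under CuO (adjusted p = 0.0360) and gave 0.54 under ZnO and -0.27 under NiO, and no pair of exposures was called. The factor klf17 rose by 2.09 under ZnO (adjusted p = 0.0380), a call kept under 9 of 25 alternatives. The erythropoietin signal carrier stat5a, which other blood cells also use, rose by 1.65 under CuO (adjusted p = 0.0285) and 1.95 under NiO (adjusted p = 0.0177). The forkhead factor foxo3b, active in many cell types, rose by 1.56, 1.73 and 1.75 (adjusted p = 0.00873, 0.00649 and 0.00842). The erythropoietin receptor gene epor was well above background on only 5 of 12 arrays and was not called, and klf1 was not tested because its brightest probe lacked 2 usable values in every group.

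Of 9 genes of red cell iron supply listed, 7 were tested. The metal transporter slc11a2, which carries ferrous iron, rose by 1.14 under ZnO (adjusted p = 0.0259), and the other comparisons called 0. The transferrin receptor tfr1a, which brings iron into forming red cells, gave 0.19, -0.27 and -1.32. All 8 red cell enzymes listed were tested and 0 were called, with a median difference of 0.71, 0.12 and 0.18. The counts of both lists lie below the 25.1%, 25.8% and 22.3% of all genes called in either direction under CuO, ZnO and NiO.

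Of 11 genes of heme breakdown and transport listed, 7 were tested: 1 rose and 2 fell under CuO, 1 rose and 1 fell under ZnO, and 1 rose and 2 fell under NiO. Of all genes 25.1%, 25.8% and 22.3% were called. Biliverdin reductase A, blvra, which makes bilirubin from the product of heme cleavage, was -0.45, -0.63 and 0.07 in control and between -3.31 and -1.33 on the 9 exposed arrays. It fell by 2.43 under CuO (adjusted p = 0.00539), 2.05 under ZnO (adjusted p = 0.0117) and 1.82 under NiO (adjusted p = 0.0212). The heme transporter paralogs went opposite ways: slc48a1a rose by 1.22, 1.50 and 1.50 (adjusted p = 0.0157, 0.00733 and 0.00969), while slc48a1b gave -1.31, -1.27 and -1.34 and was called under CuO (adjusted p = 0.0472) and NiO (adjusted p = 0.0474) but not ZnO (adjusted p = 0.0523). The slc48a1b calls were kept under 11 of 25 alternatives for CuO and 8 of 25 for NiO. The heme oxygenase gene hmox1a, which opens the heme ring, gave 1.56, 1.24 and 1.01 and was not called (adjusted p = 0.160, 0.266 and 0.378).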

How the data were processed

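Total gill RNA was labelled with cyanine 3 and scanned per array, per the labels. The deposited scanner files hold a background-subtracted processed intensity, made with Feature Extraction 11.5.1.1 per the file headers. The deposited series table holds the same intensity averaged per probe, but 10 of its 12 columns hold another sample's array, so it served only as an alternative. The submitters' processing notes name MAS5, with no role given. The labels mention a dye swap, but the files have 1 channel. The array annotation names the danRer7 build, so no coordinates are given.

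Control and outlier spots were left out. The log2 of the deposited intensity minus that of the array's 75th percentile was analysed. Tested probes lay well above background on every array of some group. The brightest probe stood for its gene, given 2 or more values per group. Of 43603 probes, 26094 were named through RefSeq accessions in a GRCz12tu table. limma 3.58.1 in R 4.3.3 fitted 4 group means, with Benjamini-Hochberg adjustment over 12559 genes at 0.05. Correlations used permutation tests with 100000 resamples. The fit was tested on simulated data for CuO against control, with 200 of 12559 genes changed. It called 39% of changes of 2 and 77% of changes of 4 log2 units, and 4.13% of its calls were false. In the real comparison 3155 genes were called, so these rates need not hold there. Each pool came from other fish, and p-values reflect that spread.

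The members and lists were chosen with earlier results of these data known. The genes named were the 5 members, every globin tested, up to 4 called members of each other red cell list by size of difference, 7 fixed genes (alas1, fech, gata1a, klf1, epor, tfr1a and hmox1a) and the 3 genes most like each member. The intestine list was added after the data were seen. Alternatives covered background correction (normexp, offset 50, on median signals because mean signals were not used here). They covered scaling, the filter on dim probes, averaging of probes, slide and replicate blocks, array weights and the series table. They also covered a covariate averaged over the oocyte markers, and each array left out. Added later were the mean of the exposures, each probe in its own fit, and the 4 arrays low in eye transcripts left out.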

Additional observations from a re-analysis of the deposited data

How the results depend on the processing

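The 12 differences of the 4 genes from control were recomputed under 25 alternatives each (300 values): 271 kept their sign and side of the threshold, 16 passed it newly and 13 changed sign. Some of these outcomes were fixed in advance. The slide and replicate blocks are the same fit, because slide n held replicate n. Leaving out an array outside the groups compared can change the adjusted p but not the difference or its sign. The count is therefore not a measure of how robust the differences are. The sign changed for hbba1 and hbbe2 under ZnO and for hbba1 under NiO. For hbba1 under ZnO it changed to -0.023 centred on ribosomal genes and -0.68 in the series table. It also changed to -0.036 without control array 1 and -0.066 without ZnO array 3. The sign was kept without control array 2 (0.61). For hbbe2 under ZnO it changed to 0.84 in the series table and 0.36 without ZnO array 1. It also changed to 0.88 without the 4 arrays low in eye transcripts, and was kept without ZnO array 3 (-2.08). For hbba1 under NiO it changed to 0.093 with array weights, 0.69 in the series table and 0.27 with the oocyte covariate. It also changed to 0.045 without control array 2, 0.39 without NiO array 2 and 0.37 without the 4 arrays. For the mean of the exposures the sign of hbba1 changed to -0.024 centred on ribosomal genes and -0.072 without control array 1. It was kept without control array 2 (0.58). The sign of hbbe2 changed to -0.22 with the covariate. The number of the 4 genes called under CuO was 2 with array weights, 2 in a fit of only the groups compared and 1 without the 4 arrays, and under ZnO 2 with array weights. With array weights 6099 of all 12559 genes were called under CuO, a share near that of the 4 genes. The F test called 1 with array weights. For the mean of the exposures it was 0 with normexp, the percentile over detected probes, ribosomal centring, probe means, the series table and the covariate, and 2 with array weights. Leaving out each array gave 0 to 1 under CuO (alas2 without control array 2 or ZnO array 1, slc4a1a without ZnO array 3), 0 to 2 under ZnO (alas2 without control array 2, alas2 and slc4a1a without ZnO array 1), 0 to 1 for NiO (slc4a1a without ZnO array 3), 0 to 1 in the F test and 0 to 2 for the mean.

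Replicate numbers mark slides, but only 7 of 18 same-numbered pairs of arrays deviated together (correlation over 0.1, range -0.58 to 0.48). With the replicate number or the slide as a block, 1 of the 4 genes was called under ZnO and 2 for the mean of the exposures.

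Over all genes, 6099 were called under CuO with array weights, 1762 under ZnO and 1494 under NiO in fits of only the groups compared, and 1943 under ZnO and 5 under NiO without the 4 arrays. The series table and the covariate gave 0 for each exposure, with 0 of the 4 genes called. The oocyte covariate followed the split of control from most exposed arrays, so that fit cannot tell oocyte RNA from exposure. Leaving out each array gave 1827 to 3429 (CuO), 1542 to 3484 (ZnO) and 953 to 2923 (NiO). Of 750 values for 30 called differences of further red cell genes, 513 stayed past the threshold, 227 did not and 10 changed sign, all in the series table: under CuO fech 0.96, slc25a38b 0.00084, ppox -0.084, stat5a -0.74, gfi1b -1.25 and blvra 0.31, and under ZnO fech 0.25, klf17 -0.71, lmo2 -0.030 and slc11a2 -0.041. In that table most columns hold another sample's array. Each labelled group there mixes arrays of several groups, so its fit cannot show an exposure difference. The repeated block fit and the arrays left out of other groups also enter the 750 values. Signal over background limits hbbe2 on ZnO array 1, the second slc4a1a probe, which was well above it on 7 arrays, and epor, which was so on 5.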
